A study of Mus musculus with 4 samples.

Results

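Osr1, Osr2, Shox2, Pax9, Barx1 and Pou3f4 are DNA-binding transcription factors that mark regions of the mesenchyme, the loose connective tissue from which the palate, the facial skeleton and the dermis form. All 6 were found by gene symbol among 32285 features, and they were measured in the whole nose of the mouse embryo (embryonic day 14.5) by droplet single-cell RNA sequencing of transcript 3′ ends. There were 2 control and 2 mutant libraries. The mutant libraries are labelled Sox10Cre/Yap/Taz cKO with the genotype Tg(Sox10-cre)1Wdr, floxed Yap, floxed Taz and C57Bl/6J, whereas by the series design Yap is floxed on 1 allele only and Taz on both. The controls are labelled WT and C57Bl/6J, whereas the series design describes animals with both Yap and both Taz alleles floxed and no Cre, and which description holds was not settled. Sox10-cre is active in neural crest cells, which give rise to much of the facial mesenchyme, and Yap and Taz (Wwtr1) are the transcriptional coactivators of the Hippo pathway. Transcripts without the floxed exons still carry a 3′ end and can be counted, and the levels of the targeted genes are therefore no check of recombination. In mesenchyme-like cells Yap1 was at 65.7 and 65.3 CPM (UMIs per 1000000 UMIs) in the controls, against 56.5 and 59.8 CPM in the mutant libraries, and Wwtr1 at 144.6 and 161.0 against 144.4 and 155.9 CPM.

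The members belong to several families of transcription factors. Osr1 and Osr2 are zinc finger factors of the odd-skipped family, and Osr2 is required for growth of the palatal shelves. Shox2 is a homeobox factor of the anterior palate. Pax9 is a paired box factor needed for palate and tooth formation, and it is known to act upstream of Osr2 in palatal mesenchyme. Barx1 is a homeobox factor of molar tooth mesenchyme, of the posterior palate and of stomach mesenchyme. Pou3f4, on the X chromosome, is a POU domain factor of the mesenchyme around the inner ear, and its loss causes a form of deafness. In the embryonic face such factors are expressed in adjoining or overlapping domains, so that the set found in a cell records where it lies.

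The genes lie apart in the genome (GENCODE M21 on GRCm38). Osr1 is at chr12:9570116-9581500 on the plus strand, Osr2 at chr15:35296098-35303305 on the plus strand and Shox2 at chr3:66971727-66981771 on the minus strand. Pax9 is at chr12:56691767-56712822, Barx1 at chr13:48662998-48666507 and Pou3f4, which has 1 exon, at chrX:110814280-110817207, all on the plus strand. Near-identical copies can share reads, so the longest exact run shared with a close relative was searched in the annotated transcripts. The runs had between 17 and 29 bases and all lay in coding exons. They are shown in capitals with 24 bases of each gene on either side, to show how quickly the relatives diverge.
Osr1 (chr12:9579711-9579781): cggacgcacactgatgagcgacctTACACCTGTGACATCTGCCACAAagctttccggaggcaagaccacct
Osr2 (chr15:35300873-35300943): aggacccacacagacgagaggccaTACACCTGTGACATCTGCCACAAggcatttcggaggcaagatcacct
Pax9 (chr12:56696711-56696784): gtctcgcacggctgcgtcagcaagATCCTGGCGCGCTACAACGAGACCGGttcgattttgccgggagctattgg
Pax1 (chr2:147365870-147365943): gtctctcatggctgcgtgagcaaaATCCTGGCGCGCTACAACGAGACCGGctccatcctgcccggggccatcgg
Pou3f4 (chrX:110815158-110815234): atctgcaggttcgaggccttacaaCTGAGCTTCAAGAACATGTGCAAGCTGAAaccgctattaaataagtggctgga
Pou3f2 (chr4:22487128-22487204, minus strand): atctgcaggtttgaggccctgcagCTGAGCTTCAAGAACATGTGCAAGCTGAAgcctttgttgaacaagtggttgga
Barx1 shared 17 bases with Barx2 across a splice junction, and Pou3f4 shared 26 bases with Pou3f1 and 23 with Pou3f3. Neighbouring genes overlap or adjoin 3 of the members. The 5′ ends of Shox2 and Rsrc1 overlap by 382 bases. The 3′ ends of Pax9 and Slc25a21 overlap by 189 bases on opposite strands, and the non-coding gene Gm44593 starts 1956 bases from the start of Pou3f4 on the other strand.

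RefSeq promoter sequences (GRCm38.p6) were on hand for 4 of the 6 members, Shox2, Pax9, Barx1 and Pou3f4. They are printed because Pax9 and Barx1 were found together in cells, Pou3f4 was found apart from them, and Barx1 differed in mural-like cells. Each is the longest stretch outside annotated exons in the 250 bases before the RefSeq start, 5′ to 3′ on the gene's strand. Capitals mark matches on either strand to 3 promoter motifs, and overlapping matches run together. The GC box was searched as GGGCGG. The CCAAT box was searched by the letters of its name. The TATA box was searched as TATAAA.
Barx1 (chr13:48662786-48662997, plus strand): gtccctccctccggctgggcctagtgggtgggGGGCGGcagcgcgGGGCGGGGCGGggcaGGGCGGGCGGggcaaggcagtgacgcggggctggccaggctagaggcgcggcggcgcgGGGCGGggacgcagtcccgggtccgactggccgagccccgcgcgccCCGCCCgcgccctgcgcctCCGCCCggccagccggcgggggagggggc
Pax9 (chr12:56695221-56695470, plus strand): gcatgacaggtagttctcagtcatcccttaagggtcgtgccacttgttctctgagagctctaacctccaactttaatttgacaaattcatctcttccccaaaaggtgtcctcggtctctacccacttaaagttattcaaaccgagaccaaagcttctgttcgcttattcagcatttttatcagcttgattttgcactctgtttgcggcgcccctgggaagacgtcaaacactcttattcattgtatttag
Pou3f4 (chrX:110814129-110814279, plus strand): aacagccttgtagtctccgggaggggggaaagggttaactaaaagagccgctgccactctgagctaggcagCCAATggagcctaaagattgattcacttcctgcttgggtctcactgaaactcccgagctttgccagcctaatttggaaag
Shox2 (chr3:66981772-66982021, minus strand): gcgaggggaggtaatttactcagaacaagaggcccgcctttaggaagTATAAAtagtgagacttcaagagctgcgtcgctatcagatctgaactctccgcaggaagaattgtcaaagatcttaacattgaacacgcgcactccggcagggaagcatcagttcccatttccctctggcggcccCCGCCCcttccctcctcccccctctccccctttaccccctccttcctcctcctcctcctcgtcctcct
In the full window of 250 bases Barx1 held 8 GC boxes and 40 CpG, more CpG than 98.7% of 32851 promoters. GC boxes were in 32.7% of all promoters, CCAAT boxes in 33.8% and TATA boxes in 12.4%. The core GGAATG of TEAD factors, through which Yap and Taz bind DNA, was in 12.6% of promoters and the homeodomain core TAATTA in 4.84%. Neither was in any of the 4 windows, which says only that these letters are absent from these bases.

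After filtering, 13284 cells remained, with between 19053672 and 33434242 UMIs (molecules counted once by a random tag) and between 2418 and 4032 cells per library. Clusters were made without the member genes and named from marker lists. The mesenchyme-like class held 8954 cells in 13 clusters, each with 3 or more of the 8 mesenchyme markers raised. Mural-like cells, the pericytes and smooth muscle of vessels, numbered 49 and 29 in the controls and 24 and 34 in the mutant libraries. Unnamed clusters held 1322 cells. Any 2 libraries shared between 2 and 5 cell barcodes. All libraries had the pattern of female embryos, with Xist between 914 and 1438 CPM and Ddx3y at or below 0.182 CPM, so the X-linked Pou3f4 was not compared across sexes. The labels name 2 sequencing providers but not the provider of each library, and provider and group cannot be told apart.

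The first question was where the members are expressed. Mesenchyme-like cells, 67.4% of all cells, held 98.7% of Pou3f4 UMIs, 95.4% of Osr2, 94.7% of Shox2, 94.2% of Osr1, 78.6% of Pax9 and 75.04% of Barx1. Barx1 and Pax9 therefore had the largest shares outside that class. Meninges-like cells, named from markers of the tissue that covers the brain and 4.06% of cells, held 12.6% of Barx1 and 6.05% of Pax9 UMIs. Nearly all of these UMIs lay in cluster 13 of that class, led by Itgbl1, Foxc1, Cldn11 and Crym. Cluster 13 had the meninges markers Foxc1, Foxd1, Zic1, Foxp2 and Aldh1a2 raised. The meninges markers Slc6a13 and Tbx18 were raised in cluster 21 and not in cluster 13. The tissue of cluster 13 was not tested, so these shares alone do not place either gene in the brain's coverings. In macrophage-like cells, which should lack these genes, between 0 and 7.8 CPM of any member were found in any library, and Osr1, Pax9 and Pou3f4 had no UMI there. In cells thinned to 2000 UMIs, at most 2.63% of macrophage-like cells in a library carried a UMI of a given member. Median depth before thinning was between 7323 and 9850 UMIs in macrophage-like and between 4895.5 and 8190 in mesenchyme-like cells.

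Within the mesenchyme each member had its own peak, as a mean over the 4 libraries. Osr1 was highest in cluster 10, at 290 CPM, and in cluster 1, at 264 CPM. Cluster 10 is led by Gfra1, Epha3 and Nrg1, and cluster 1 by Pde10a and Pcdh15. Osr1 in cluster 10 was at 222 and 374 CPM in the controls, against 289 and 274 CPM in the mutant libraries, so this order of the top pair did not hold beyond the spread between libraries. Osr2 was highest in cluster 14 at 261 CPM, in cluster 2 at 215 CPM and in cluster 6 at 194 CPM. The libraries overlapped between neighbours in that order, with 229, 319, 260 and 237 CPM in cluster 14 (control 1, control 2, mutant 1, mutant 2) and 192, 220, 226 and 223 CPM in cluster 2.

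Shox2 peaked in cluster 3, led by Foxf1, Foxf2, Lhx8 and Shox2 itself. There it was at 323, 348, 268 and 310 CPM in control 1, control 2, mutant 1 and mutant 2, and in no other mesenchymal cluster did any library exceed 211 CPM. Pax9 peaked in cluster 14, led by Gata2, Pax9 and Slc25a21, at 230, 275, 290 and 307 CPM in the same order. Cluster 3 followed with 181, 108, 204 and 157 CPM, below cluster 14 in each library, and the dividing cluster 5 with a mean of 103 CPM. In the 9 mesenchymal clusters other than 0, 3, 5 and 14 the mean of Pax9 was at most 6.1 CPM, so its spread between clusters was steep. Outside the mesenchyme, Pax9 was also at 54.6, 60.4, 62.4 and 77.8 CPM in nasal respiratory epithelium-like cells, a class in which every other member was at or below 4.64 CPM.

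Barx1 was spread over more clusters. It was at 172, 166, 306 and 138 CPM in cluster 3 (control 1, control 2, mutant 1, mutant 2), and its mean was 161 CPM in cluster 5, 160 CPM in cluster 6, 122 CPM in cluster 0 and 102 CPM in cluster 14. These clusters overlapped between libraries. In meninges-like cells Barx1 was at 186, 43.3, 205 and 158 CPM, with control 2 the lowest by far. Osr1 was at 65.4 and 67.6 CPM in meninges-like cells of the controls, against 13.0 and 31.4 CPM in the mutant libraries, and Pax9 at 44.7 and 14.9 against 96.9 and 50.7 CPM. Neither gene overlapped between the groups, and neither difference was tested. The class joins clusters 13 and 21, and cluster 21 held 59 and 63 control cells but 4 and 18 mutant cells. Within cluster 13 both genes overlapped between the groups, with Osr1 at 9.23 and 35.9 against 5.91 and 17.6 CPM and Pax9 at 70.8 and 24.7 against 102 and 62.8 CPM. Barx1 had 1 UMI in all of cluster 21 and Pax9 none. Pou3f4 was found in fewer clusters. It was at 117, 61.3, 84.0 and 108 CPM in cluster 15, led by Pou3f4, Tafa2, Mef2c and Trps1, and at 45.4, 20.6, 65.2 and 59.1 CPM in the dividing cluster 22. Its mean was at most 18.1 CPM in each of the other 11 mesenchymal clusters. Cluster 32 had 1 cell in control 1, so its mean rests on 3 libraries in practice.

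**Figure D1:**
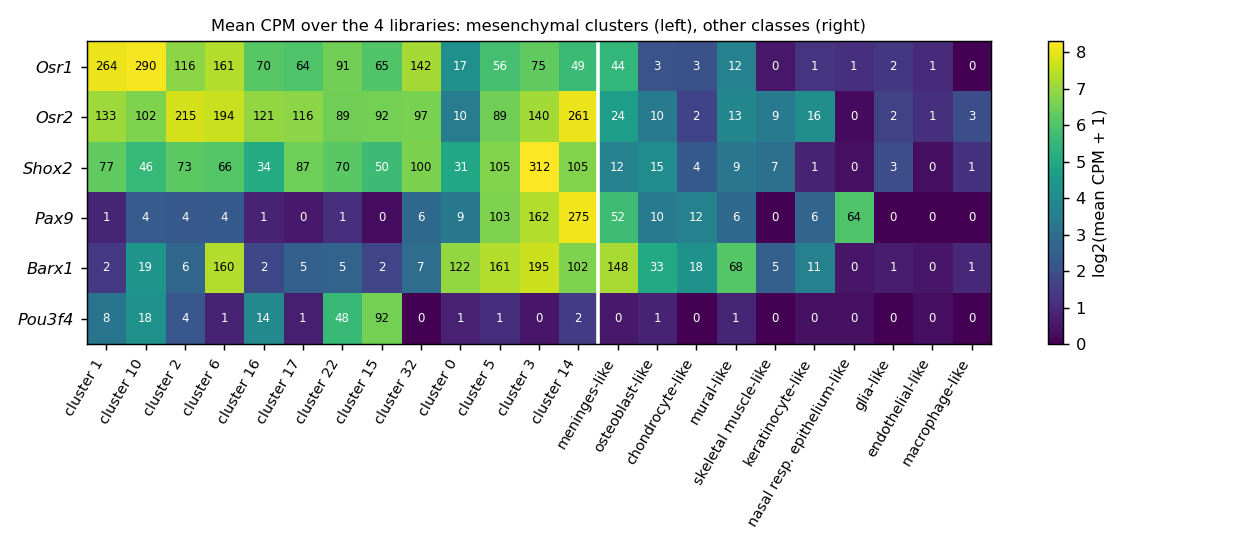
Mean level of each member (rows) over the 4 libraries, in CPM (printed in each cell; colour on a log2 scale), for the 13 mesenchymal clusters on the left of the white line and 10 other classes on the right. Osr1 is highest in clusters 10 and 1, Shox2 in cluster 3, Pax9 in cluster 14 and Pou3f4 in cluster 15, while Barx1 reaches from clusters 0, 3, 5, 6 and 14 to meninges-like and mural-like cells.

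For each member the 3 genes with the most similar pattern over the 13 mesenchymal clusters were taken from 8844 genes, by Pearson's r of log2(CPM + 10). The clusters share libraries and differ in depth, so r is a description. Pax9 was most like Slc25a21, its neighbour with the overlapping 3′ end, at r = 0.94, and then Gmfb at 0.91 and Entpd1 at 0.90. The counting strand was not given in the sources used here, so reads from the overlap of that pair cannot be told apart. Pou3f4 was most like Gm44593, which starts beside it, at r = 0.93, and then Sox18 at 0.89 and Thumpd3 at 0.88. Barx1 was most like Plscr1 at 0.92, Ier2 at 0.91 and Cobl at 0.89. Shox2 was most like Decr1 at 0.88, Tspan13 at 0.86 and Cntnap4 at 0.83. Osr1 was most like Nrg1, a ligand of ErbB receptors, at 0.84, then Nmi at 0.83 and Rbsn at 0.80. Osr2 was most like Xiap at 0.84, Pdcd10 at 0.83 and Myl12b at 0.82.

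The second question was which members occur in the same cell and which exclude each other. Cells were thinned to 2000 UMIs, and the number with both members was divided by the number expected if the pair were independent within a library. Between 49.1% and 52.0% of mesenchyme-like cells in a library carried none of the members, between 35.7% and 36.8% carried 1 and between 10.4% and 12.9% carried 2. At this depth a cell without a UMI may still express the gene, so exclusion is seen only as a deficit of joint detections.

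Pax9 and Barx1 were the pair found together most often relative to expectation. Control 1 had 36 such cells against 12.5 expected, control 2 had 8 against 4.203, mutant 1 had 34 against 8.86 and mutant 2 had 24 against 8.53. The ratios were 2.87, 1.90, 3.84 and 2.81, and the exact 95% interval (counting error only) lay above 1 in each library except control 2, where it ran from 0.823 to 3.74. In control 1, Barx1 was found in 21.3% of cells with Pax9 and in 6.41% of cells without it. Pooled over libraries the ratio was 2.99, and it fell to 1.33 when the expected number was formed within each mesenchymal cluster. Both genes are high in clusters 3, 5 and 14, and the excess inside single clusters was smaller.

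The factors of the palatal shelf were also found together. Shox2 and Pax9 had a pooled ratio of 1.54, with 1.34, 1.59, 2.40 and 1.28 in control 1, control 2, mutant 1 and mutant 2. Within clusters that ratio was 0.93, on the other side of 1. Osr2 and Pax9 had a pooled ratio of 1.38, between 1.13 and 1.84 in the libraries, and 1.07 within clusters. The 95% interval lay above 1 in control 2 and mutant 2 and included 1 in control 1 and mutant 1. Osr2 and Shox2 had a pooled ratio of 1.34 with 310 cells against 231 expected, between 1.06 and 1.57 in the libraries. Within clusters it was 1.23, so this pair kept more of its excess. The 95% interval of Osr2 and Shox2 lay above 1 in each library except control 2. Osr1 and Osr2, the relatives of the odd-skipped family, were at 1.13, and Osr1 and Shox2 at 1.00.

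Pou3f4 was found apart from each of the other members. With Pax9 it shared 2 cells against 12.4 expected over all libraries, a ratio of 0.16, and with Barx1 4 cells against 13.7, a ratio of 0.29. With Shox2 the ratio was 0.43, with Osr1 0.46 and with Osr2 0.50. For each of these 5 pairs every library lay below 1, although the 95% interval excluded 1 in 1 library per pair, and the cells with Pou3f4 numbered 56 and 15 in the controls and 74 and 59 in the mutant libraries. Within clusters the ratio stayed at 0.48 with Osr1, 0.62 with Osr2 and 0.61 with Shox2. With Barx1 it was 1.48, on 4 cells against 2.71 expected, and that deficit was not seen inside clusters. With Pax9 the ratios within clusters were 1.53 in control 1, 0 in mutant 1 and 1.63 in mutant 2, each from at most 1 cell with under 1 expected, and control 2 had 0 expected. The deficit of Pou3f4 with Pax9 was thus not seen inside clusters either, at counts that could hardly show one.

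Osr1 was found apart from Barx1 and Pax9. Osr1 and Barx1 had a pooled ratio of 0.56, with 0.40, 0.79, 0.59 and 0.58 in control 1, control 2, mutant 1 and mutant 2, and 0.74 within clusters. Osr1 and Pax9 had a pooled ratio of 0.67 with every library below 1, and 1.02 within clusters, so the deficit was not seen inside clusters. Shox2 and Barx1 were at 0.91 over all cells and at 0.71 within clusters, but at 1.15 when 2 or more UMIs were required, with 93 cells against 81.0 expected, so the direction for this pair was not settled. Of the 15 pairs, 5 lay above 1 and 7 below 1 in all 4 libraries.

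None of the pair ratios separated the controls from the mutant libraries beyond what this design can test. With 0.5 entered for a pair never seen in a library, both libraries of a group lay on 1 side of the other group in 3 of the 15 pairs. These were Osr1 with Pax9, Osr2 with Barx1 and Shox2 with Pou3f4. Without that step Barx1 with Pou3f4 was apart too, at 0 in both controls and at 0.36 and 0.64 in mutant 1 and mutant 2. The smallest two-sided exact permutation p that 2 against 2 libraries can give is 0.333, and every p adjusted over the 15 pairs was 1.

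**Figure D2:**
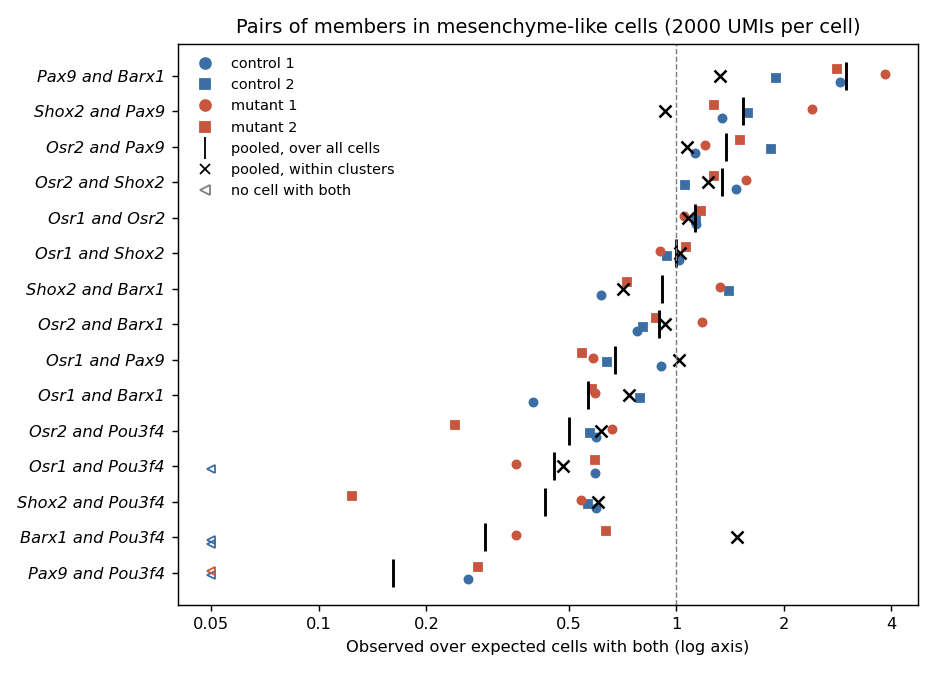
Observed over expected number of mesenchyme-like cells with both members of a pair, for cells thinned to 2000 UMIs, on a log axis. Coloured points are the 4 libraries, open triangles at the left edge are libraries with no cell of the pair, vertical bars are pooled ratios and crosses are pooled ratios with the expectation formed within clusters (not drawn for Pax9 and Pou3f4). Pax9 and Barx1 stand highest at 2.99, and the pairs with Pou3f4 stand lowest, down to 0.16.

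The third question was whether the members differed between mutant and control libraries. The protocol speaks of 2 noses of each kind but ties no library to an animal, so p-values measure the spread between these libraries, which may be technical. In mesenchyme-like cells no member passed an edgeR adjusted p of 0.05, and the share of all 15731 genes called there was 0%, so 0 of 6 is no different from the background. At an unadjusted p under 0.05 there were 1239 genes, and the DESeq2 Wald test called 55 genes and no member.

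Pou3f4 had the largest of these differences. It was at 16.4 and 8.6 CPM in the controls, against 23.8 and 18.5 CPM in the mutant libraries. Both mutant libraries were above both controls, with control 2 the lowest. The log2 difference was 0.69 ± 0.27 (SE, n = 2 against 2), with an unadjusted edgeR p of 0.032, or 0.603 after adjustment. The size depended on control 1, since the difference without it was 1.26, with control 2 as the only control left. The Pou3f4 cluster 15 made up 7.24% and 6.53% of mesenchyme-like cells in the controls, against 14.96% and 9.53% in the mutant libraries. When each of the 12 mesenchymal clusters with at least 20 cells in every library was given equal weight, Pou3f4 was at 19.6 and 10.5 CPM in the controls, against 15.7 and 17.5 CPM in the mutant libraries, and the groups overlapped. Within cluster 15 it overlapped too.

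Osr1 was at 84.4 and 105.7 CPM in the controls, against 122.7 and 108.9 CPM in the mutant libraries, a log2 difference of 0.25 ± 0.13 with an adjusted edgeR p of 0.696. Both mutant libraries were above both controls, by little. Osr2 was at 131.3 and 140.5 CPM against 107.5 and 132.2 CPM, a log2 difference of -0.23 ± 0.12 with an adjusted p of 0.687, and mutant 2 lay above control 1. Shox2 was at 101.0 and 72.3 CPM against 74.3 and 85.5 CPM, Pax9 at 44.7 and 29.5 against 43.6 and 41.2 CPM, and Barx1 at 66.7 and 50.04 against 72.2 and 45.0 CPM. Each of these last 3 overlapped between the groups. Their log2 differences were -0.17 ± 0.15, 0.14 ± 0.17 and -0.04 ± 0.22. With equal weight for each of the 12 clusters, Osr1 overlapped, at 92.3 and 113.5 against 122.7 and 110.4 CPM. Pax9 was then apart, at 45.1 and 39.1 against 55.8 and 48.3 CPM, with an exact permutation p of 0.333. In the fits of summed counts Pax9 moved with single libraries. Its difference was 0.48 without control 1 and -0.11 without control 2, so single controls set its size and its sign.

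**Figure D3:**
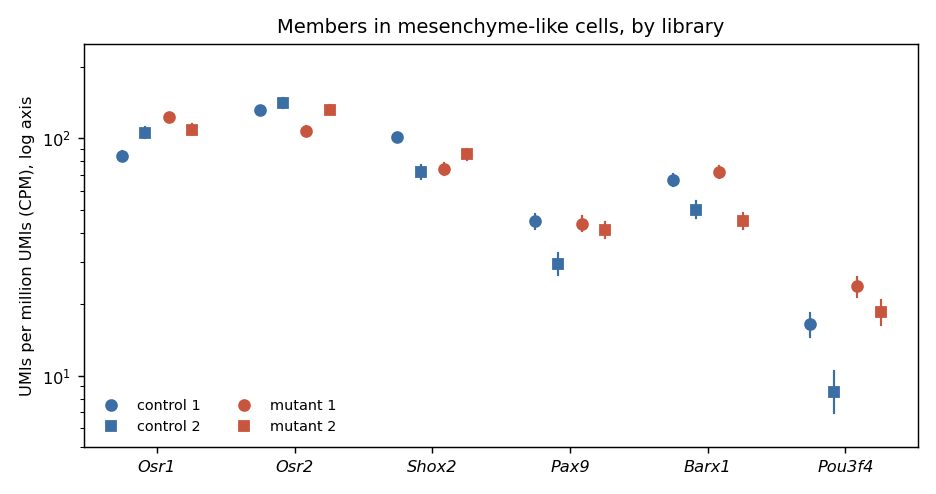
Level of each member in mesenchyme-like cells of the 4 libraries, in CPM on a log axis, with exact Poisson 95% intervals that cover counting error only. The mutant libraries lie above both controls for Pou3f4 (23.8 and 18.5 against 16.4 and 8.6 CPM) and by less for Osr1, and overlap the controls for the other members.

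The share of mesenchyme-like cells with a UMI gave the same picture at equal depth. Osr1 was found in 15.1% and 16.6% of control cells and in 19.0% and 17.2% of mutant cells. At this depth Osr1 was the 1 member whose groups did not overlap. Its exact two-sided permutation p was 0.333, and 1 after adjustment over the 6 members. Pou3f4 was found in 2.26% and 0.924% against 3.71% and 2.25%, where mutant 2 lay just below control 1. The Osr1 groups stayed apart with doublets kept and at Leiden resolution 2, but overlapped at other depths. Thinned to 4000 UMIs, Osr1 was found in 28.4% of cells in control 2 and 28.2% in mutant 2. Without thinning these shares were 35.7% and 32.1%, and with 2 or more UMIs required they were 17.7% and 14.4%. Over all retained cells the edgeR background was again 0% of 17939 genes, and Pou3f4 was the member with the lowest p, at a log2 difference of 0.86 ± 0.27 and an adjusted p of 0.912. In the 12 mesenchymal clusters with at least 20 cells in every library, fitted 1 by 1, no member was called in any cluster, beside 0.0257% of all gene tests.

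The close relatives and the other palate genes were read from lists. Of the relatives Pax1, Barx2, Pou3f1, Pou3f2 and Pou3f3, 4 were tested in mesenchyme-like cells, none passed, and the median log2 difference was 0.02 beside 0.00 over all genes. Barx2 had the lowest p, on 5, 1, 11 and 13 UMIs. All 28 palate genes were tested there, none passed, 5 were higher and 1 lower at an unadjusted p under 0.05, and their median was 0.11. The 4 of lowest p were higher in both mutant libraries than in both controls. Msx1, a homeobox partner of Bmp4 in the palate, was at 72.7 and 70.2 against 110.8 and 103.6 CPM, a log2 difference of 0.54 ± 0.09 with an edgeR adjusted p of 0.273. Tbx3, a T-box factor of the limb and palate, was at 40.8 and 40.6 against 62.5 and 54.0 CPM, with a difference of 0.48 ± 0.11 and an adjusted p of 0.444. Bmp4, a growth factor, was at 42.7 and 42.2 against 51.7 and 58.7 CPM. Sostdc1, a secreted antagonist of BMP and Wnt signals, was at 249.8 and 164.9 against 332.4 and 305.2 CPM.

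The fourth question was whether the members are present in mural and skeletal cells. Barx1 was present in mural-like cells of the mutant libraries and nearly absent from those of the controls. It was at 8.6 and 3.6 CPM in control 1 and control 2, from 4 and 1 UMIs, and at 185.6 and 72.6 CPM in mutant 1 and mutant 2, from 47 and 22 UMIs. The groups did not overlap, and the Poisson intervals of the counts did not overlap either. Cells with a Barx1 UMI numbered 1 of 49 and 1 of 29 in the controls and 11 of 24 and 9 of 34 in the mutant libraries. No cell held more than 8 of these UMIs, so several cells carried the signal in each mutant library.

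The edgeR log2 difference of Barx1 in mural-like cells was 4.15 ± 0.61 (SE, n = 2 against 2), with an adjusted p of 0.00257, beside 1.75% of 4971 genes called. Barx1 was the 1 member that passed the filter on low counts there, and it passed through the mutant libraries alone, so this fit tested Barx1 because it was high in the mutant libraries, and its p is given as a description. In the fit without that filter, where each gene with a UMI was tested, the difference was 4.10 with an edgeR adjusted p of 6.71e-12. That setting called 236 genes, against 87 with the filter, so this p is a description too. The DESeq2 difference was 4.27 with an unadjusted p of 7.85e-06, and its adjusted p was not given by that tool. In mesenchyme-like cells of the same libraries Barx1 differed by -0.04. The difference between these 2 changes was tested with a class by group term over 14400 genes, in which all 6 members passed the filter through their mesenchymal counts. On the log2 scale it was 4.25 ± 0.52, and edgeR gave an adjusted p of 1.19e-12, beside 1.22% of genes called, and it lay between 3.85 and 4.91 when any 1 library was left out.

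Shox2 also passed that test. It had 0 and 0 UMIs in mural-like cells of the controls and 7 and 2 in the mutant libraries, which is 27.6 and 6.6 CPM. The mutant libraries together were at 16.2 CPM, 4.00-fold the limit that 0 UMIs allow over both controls (3 UMIs, 4.05 CPM). That fold takes the 9 mutant UMIs as exact, so it is no lower bound, and 7 of them were in mutant 1. The adjusted edgeR p of the class by group term was 0.0082, and it was 0.222 with the DESeq2 Wald test. It was 0.345 without control 1, 0.115 without control 2 and 0.787 without mutant 1, so the call rests on few molecules. The other members did not pass. Osr2 was at 2.1 and 7.3 CPM against 27.6 and 16.5 CPM (adjusted p 0.101), Pax9 at 2.1 and 0 against 15.8 and 6.6 CPM (adjusted p 0.624), and Osr1 at 8.6 and 0 against 11.8 and 26.4 CPM (adjusted p 0.712). In each of these 3 genes both mutant libraries were above both controls in CPM, on few UMIs. In the order control 1, control 2, mutant 1, mutant 2, Osr2 had 1, 2, 7 and 5 UMIs. Pax9 had 1, 0, 4 and 2 UMIs and Osr1 had 4, 0, 3 and 8. In mutant 1 a single cell held 5 of the Osr2 UMIs. Pou3f4 had 1 UMI in all mural-like cells.

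**Figure D4:**
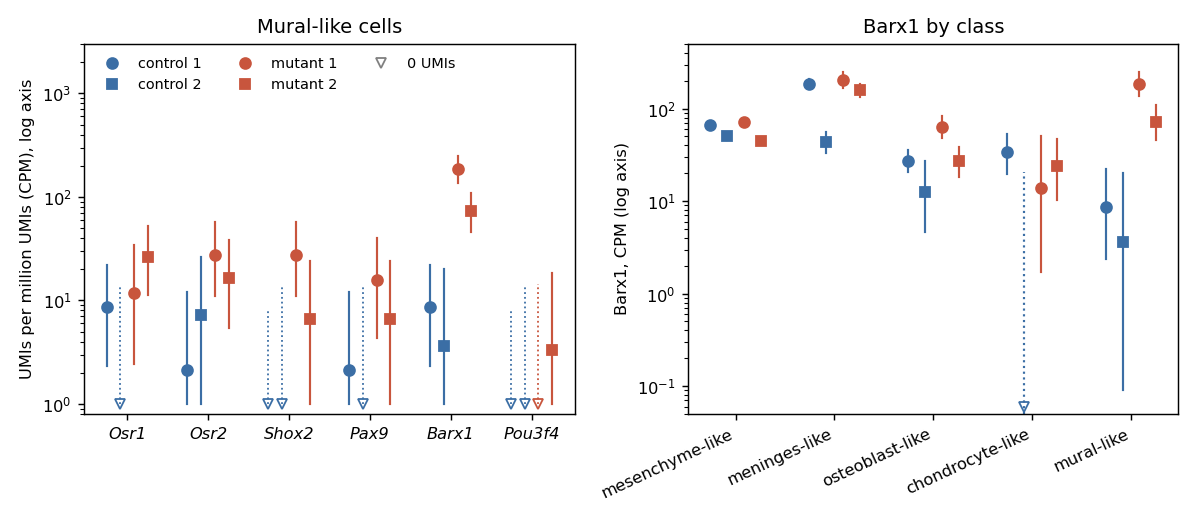
Left, members in mural-like cells of the 4 libraries in CPM on a log axis, with exact Poisson 95% intervals (counting error only, open triangles for 0 UMIs). Right, Barx1 in 5 classes, where the mutant libraries stand apart in mural-like cells (185.6 and 72.6 CPM, controls 8.6 and 3.6 CPM) and overlap with the controls in mesenchyme-like cells.

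Other genes moved with Barx1 in the mural-like cells. All 11 genes of the mural list were detected in every library, and their summed level was 5553 and 4691 CPM in the controls, against 6584 and 7263 CPM in the mutant libraries. The contractile genes Acta2, Tagln and Myh11 rose, by 1.42, 1.43 and 2.18 (log2), with edgeR adjusted p-values of 0.0217, 0.00145 and 0.0317. The pericyte gene Vtn, which is also a leading gene of meninges-like cluster 21, fell by 3.49 with an edgeR adjusted p of 5.83e-05. They are named because they were the 3 genes of the list called higher and the 1 called lower. The rest of the 11 did not pass, and the median log2 difference of the list was -0.08. The meninges list, of which 6 or 7 of 8 genes were detected in each library, summed to 473 and 856 CPM in the controls, against 209 and 148 CPM in the mutant libraries, and 3 of the 5 tested fell while none rose past the threshold. The mesenchyme list did not separate the groups, at 2322 and 1810 against 2077 and 2069 CPM, with 6 of its 8 genes detected in mutant 1 and all 8 in the other libraries. The endothelial list was at 277 and 265 against 261 and 247 CPM. The part of these other changes in the Barx1 difference was not tested.

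Barx1 was higher in the mutant libraries in either part of the mural-like cells when they were split at the median level of Acta2, Tagln and Myh11, a split chosen after seeing the data. Above the median Barx1 was at 19.2 and 8.96 CPM in the controls, against 172.7 and 85.3 CPM in the mutant libraries. At or below the median it had no UMI in 29 and 18 control cells and was at 225 and 55.0 CPM in 5 and 16 mutant cells. Mural-like cells with Barx1 carried the mural list at 8848 and 6725 CPM in mutant 1 and mutant 2, and those without it at 4883 and 7422 CPM, while their mesenchyme list was at 2228 and 2068 CPM with and 1964 and 2069 CPM without Barx1. The mural list was thus higher in cells with Barx1 in mutant 1 and lower in mutant 2. Median depth was 9968 and 7214 UMIs with and 8414 and 7742 UMIs without Barx1. These values describe few cells, and the source of the Barx1 difference was not tested.

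From the list of palate genes 9 of 28 were tested in mural-like cells. Foxd1, a forkhead factor of stromal and pericyte precursors, also belongs to the meninges list above. It fell by 4.77 (log2), from 73.0 and 152.4 CPM to 3.9 and 3.3 CPM, at an edgeR adjusted p of 0.00202. Dkk2, a secreted modulator of Wnt signals, fell by 2.12, from 88.1 and 137.9 to 31.6 and 19.8 CPM, with an adjusted p of 0.0197. No gene of the list rose past the threshold. Meis2, a homeobox factor of cranial mesenchyme, was at 49.4 and 0 against 158.0 and 79.2 CPM with an adjusted p of 0.149, and Msx1 at 40.8 and 21.8 against 98.7 and 62.7 CPM with an adjusted p of 0.185.

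The level in mural-like cells was also compared with that in mesenchyme-like cells of the same libraries, over both groups. Osr1, Osr2, Shox2, Pax9 and Pou3f4 were lower in mural-like cells, by 3.14, 3.44, 3.59, 2.88 and 4.40 (log2), and each had an edgeR adjusted p of at most 5.61e-05, beside 14.4% of genes called lower. Barx1 was at -0.08 ± 0.33, with an adjusted p of 0.892. That value averages the controls and the mutant libraries, which differed in it as given above, and its sign changed with several settings.

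In skeletal cells the members were low. All 6 were lower in chondrocyte-like cells than in mesenchyme-like cells, beside 11.7% of genes called lower, and for the 5 members with UMIs in both classes the edgeR log2 differences ran from -1.43 ± 0.28 for Barx1 and -1.91 ± 0.37 for Pax9 to -6.26 ± 0.44 for Osr2. Pou3f4 had no UMI in any of 164 chondrocyte-like cells, so its fitted difference is no measure of size and is left out of that range, and Osr1, Osr2 and Shox2 had between 2 and 4 UMIs in all. Barx1 was at 33.6, 0, 14.01 and 23.99 CPM in control 1, control 2, mutant 1 and mutant 2, and Pax9 at 11.8, 11.2, 14.01 and 9.0 CPM. With 16 cells in mutant 1 this class was not tested between the groups alone. The class by group term called none of the members, beside 0.0762% of genes.

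In osteoblast-like cells, which lay down bone, all 6 were again lower than in mesenchyme-like cells, beside 18.4% of genes called lower. Osr1 differed most, by -4.96 ± 0.23, and Barx1 least, by -0.71 ± 0.17 with an edgeR adjusted p of 0.00279. Without control 1 the adjusted p of Barx1 was 0.0887, and its direction depended on where the class ends. At Leiden resolution 2, which adds a cluster of Runx2, Sp7 and Alpl cells led by Pdzrn4 and Omd, Barx1 was higher in osteoblast-like cells by 0.94, with an adjusted p of 2.83e-04. Between the groups no member passed, beside 0% of 9117 genes. Barx1 was at 27.5 and 12.5 CPM in the controls, against 63.7 and 27.0 CPM in the mutant libraries, a log2 difference of 0.85 ± 0.42 with an edgeR adjusted p of 0.994, and mutant 2 lay just below control 1. Against its change in mesenchyme-like cells the difference was 0.99 ± 0.30 with an adjusted p of 0.595, beside 0.0273% of genes called.

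Skeletal muscle-like cells, 90 in all and 15 or 16 in each mutant library, were not tested. Osr2 was at 9.3, 4.3, 13.8 and 10.4 CPM there and Shox2 at 14.9, 4.3, 0 and 10.4 CPM, in the order control 1, control 2, mutant 1, mutant 2. Barx1 had 1 and 3 UMIs in the mutant libraries and none in the controls. Osr1 had 1 UMI, and Pax9 and Pou3f4 had none. In keratinocyte-like cells, the epidermis around the nose, 0.0442% of 11325 genes were called and none of the 3 members tested was. Osr2 was at 14.8 and 34.3 CPM in the controls, against 2.8 and 12.1 CPM in the mutant libraries, a log2 difference of -1.65 ± 0.61, and Pax9 was at 3.1 and 1.8 against 5.2 and 12.1 CPM, a difference of 1.62 ± 0.57, both with an edgeR adjusted p of 0.817. Both genes were apart between the groups.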

How the data were processed

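Raw UMI counts for each gene and barcode were deposited by the authors. Per the file headers they come from Cell Ranger 8.0.1, whereas the submitters' processing notes name Cell Ranger 4, Seurat 4.3.0 and mm10. Barcodes under 500 genes or over 10% mitochondrial UMIs were left out, and the 0.8% per 1000 barcodes with the highest Scrublet scores were removed, since its automatic threshold marked between 3 and 7 cells a library. Cells were clustered with scanpy 1.11.5 (1988 variable genes without the members and their relatives, 40 components, Leiden resolution 1). A name needed 3 markers, each found in 20% of cells and at 2 times the level of other clusters. For mesenchyme the level was compared only with the clusters already named as other types. Another class had to have under 75% as many raised markers, and names other than mesenchyme also needed a marker among the leading genes. These rules were set after seeing the clusters. For all cells, for mesenchyme-, mural-, osteoblast- and keratinocyte-like cells and for 12 mesenchymal clusters, each with 20 or more cells in all libraries, UMI counts were summed by library and tested by the quasi-likelihood test of edgeR 4.0.16 (TMM scaling, low counts removed by filterByExpr, Benjamini-Hochberg over all genes, threshold 0.05), with DESeq2 1.42.0 as an alternative. Other classes were not tested between the groups. Class levels used the library as a block. Standard errors are the log2 difference divided by the square root of F. On simulated counts with 4-fold changes edgeR recovered 92% of changed genes in the size of the mesenchyme-like comparison and 85.5% in that of the mural-like one. Intervals are exact at 95% and, like the limit of 3 UMIs for a count of 0, cover counting error only. The members and lists were chosen with earlier results of these data known. Named besides the members are their relatives, the palate genes of lowest p in mesenchyme-like cells, the 3 most similar genes per member and markers. The palate genes named in mural-like cells were chosen after their values were seen.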

Additional observations from a re-analysis of the deposited data

Results flagged for a closer look

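Barx1 and Shox2 changed differently in mural-like and in mesenchyme-like cells by the class by group term of edgeR. For Barx1 the difference between the changes was 4.25 on the log2 scale, with both mutant libraries above both controls in mural-like cells. For Shox2 the fitted value was 10.20, which is no measure of size, because the mural-like cells of both controls held no Shox2 UMI. The remaining members of the 6 did not pass this test.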

How the results depend on the processing

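Of the member counts, 99 alternative values stayed on the same side, and of the single members 309 did. No member was called in mesenchyme-like cells, against 1 without a filter on low counts, where the genes called rose from 0 to 540. In keratinocyte-like cells the count was 1 without the filter, where the genes called rose from 5 to 179. In single mesenchymal clusters it was 3 without the filter, and the count over all genes at that setting is not given here. The class by group term called 2 members in mural-like cells among 176 genes, and 1 among 35 with DESeq2. All these member counts also moved with a library left out, where a single library of a group remains. In mesenchyme-like cells they moved without control 1, for Pou3f4 and Pax9. The cause was not tested.

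Barx1 changed sign. Its mesenchymal change was 0.000127 at Leiden resolution 2, 0.39 at equal cluster makeup and between -0.44 and 0.27 with a library left out. Its share difference was 0.0487 percentage points at resolution 2 and between -1.19 and 1.06 with a library left out. Its mural level was 0.0159 with doublets kept, 0.36 at resolution 2 and between -1.04 and 0.48 with a library left out, and its osteoblast level was 0.94 at resolution 2. With a library left out the change of Shox2 ranged from -0.38 to 0.10 and that of Pax9 from -0.11 to 0.48, their share differences from -3.38 to 0.337 and from -0.839 to 1.36 points, and the class by group term of Pou3f4, from 1 UMI, from -0.79 to 7.19.

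Pair ratios with the expectation within clusters were 1.02 for Osr1 and Pax9, 0.736 for Osr1 and Barx1, 0.929 for Shox2 and Pax9, 1.33 for Pax9 and Barx1 and 1.48 for Barx1 and Pou3f4. Without thinning they were 1.18 for Osr1 and Osr2, 1.14 for Osr1 and Shox2, 0.722 for Osr2 and Pou3f4 and 0.675 for Shox2 and Pou3f4. With 2 or more UMIs required they were 1.25 for Osr1 and Osr2, 1.21 for Osr1 and Shox2, 1.57 for Osr2 and Shox2, 1.80 for Osr2 and Pax9, 2.12 for Shox2 and Pax9, 4.16 for Pax9 and Barx1, 1.15 for Shox2 and Barx1 (0.910 otherwise, and 1.12 without thinning) and 0 for Pax9 and Pou3f4. Osr1 and Osr2 were at 1.06 at resolution 2, and Osr1 and Shox2 at 1.10 when thinned to 4000 UMIs.

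Over all genes the counts moved more. In mesenchyme-like cells 0 genes were called, 55 with DESeq2, 540 without the filter and up to 1072 with a library left out (control 1). In mural-like cells 87 were called, 31 with DESeq2, 236 without the filter and between 84 and 279 with a library left out. With a replicate block these counts were 123 and 241, and the change of Barx1 in mural-like cells was 4.32. Same-numbered libraries share only a number (correlation of deviations -0.028), and the block changed no member's call.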
